A study of Homo sapiens with 2 samples.

Results

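Desmosomes are junctions that tie the keratin filaments of neighbouring epithelial cells together. The 9 genes described here encode their parts: the plakophilins PKP2 and PKP3 and the related PKP4, plakoglobin (JUP), desmoplakin (DSP), the desmosomal cadherins DSG2, DSC2 and DSC3, and the membrane protein PERP. They were taken by gene symbol through the Entrez IDs of the deposited tables, and all 9 were found among the 16399 genes listed. All 9 also reached 1 CPM, a count scaled to a library total of 1000000, in at least 1 library, as did 12820 genes in all.

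RNA sequencing covered 2 cultures of A549, an established human lung adenocarcinoma line grown in DMEM with serum. The PKP2 culture overexpressed PKP2 carrying an SFB tag, and the vector culture carried the empty vector. Both were at passage 5, while the promoter of the construct, and whether the cells were 1 clone or a pool, stand as not given in the sources used here. Each group held 1 library, so no difference below has a replicate check or a p-value. Each one describes a pair of libraries rather than the effect of PKP2. Estimated counts summed to 16808842 in the PKP2 library and 16996976 in the vector library. Intervals in brackets are exact 95% counting intervals and cover counting error only.

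In a desmosome, desmoglein and desmocollin cadherins bind across the gap between cells. Their tails hold plakoglobin and a plakophilin, which are armadillo-repeat proteins of the plaque, and desmoplakin links this plaque to keratin. PKP2 is the plakophilin of simple epithelia and of heart muscle, where loss of PKP2, DSP, DSG2, DSC2 or JUP function is a known cause of arrhythmogenic cardiomyopathy.

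The epithelial label of the line was checked on markers first. The simple epithelial keratins KRT8 and KRT18 were at 5416 and 3849 CPM in the PKP2 library, against 5339 and 3875 CPM in the vector library. E-cadherin (CDH1) was at 55.0 CPM in the PKP2 library and 63.2 CPM in the vector library, while the epithelial surface marker EPCAM was at 1.37 and 1.47 CPM. The lung lineage factor NKX2-1 had 1 count in the PKP2 library and 2 counts in the vector library. The A549-typical enzymes AKR1B10, AKR1C1, ALDH1A1 and NQO1 summed to 11659 CPM in the PKP2 library and 11363 CPM in the vector library. Markers of cardiomyocytes summed to 0.178 CPM in the PKP2 library and 0.0588 CPM in the vector library over the 3 of 5 that could be analysed here. Endothelial markers summed to 0.773 and 0.177 CPM over 2 of 3, and fibroblast markers to 11.6 and 9.12 CPM over 4 of 6, most of it COL1A1. Leukocyte markers summed to 82.8 CPM in the PKP2 library and 78.8 CPM in the vector library over 2 of 4, nearly all of it CD68, and the markers not counted here were not analysed.

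PKP2 was the one desmosome gene far apart between the libraries. It had 4505 counts, or 268 CPM (260 to 276), in the PKP2 library and 464 counts, or 27.3 CPM (24.9 to 29.9), in the vector library. The ratio was 9.82 (8.92 to 10.8), and the difference on the scale of log2(CPM + 1), PKP2 library minus vector library, was 3.25. Both counts were whole numbers. The gene (Entrez ID 5318) lies on chromosome 12, 32790745 to 32896840, on the minus strand of GRCh38. Gene-level counts do not separate transcripts of the construct from those of the chromosomal gene. In bulk RNA fewer cells with a transcript and less transcript per cell cannot be told apart.

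Among expressed genes PKP2 ranked 2 by this difference. Rank 1 was KIAA0408, with 149.68 estimated counts in the PKP2 library and 0 in the vector library. That gene was looked up after its value was seen, and its fractional count is uncertain. When only genes averaging at least 5 CPM were kept, PKP2 ranked 1. The genes nearest to it in the ranking were LOC102723728 at 2.03, LOC102723360 at 1.34 and CFB at 1.11 on the same log2 scale. The first 2 of these had fractional counts. This likeness is a distance over a single pair of libraries. By CPM, not scaled by length, PKP2 stood at place 577 of all listed genes in the PKP2 library and at place 6731 in the vector library. Per kilobase of longest transcript it stood at places 955 and 7105 among expressed genes with an annotated length.

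The genes beside PKP2 on chromosome 12 did not share its difference. YARS2, a mitochondrial tyrosyl-tRNA synthetase gene 34842 bases away, had 491.2 estimated counts in the PKP2 library and 526.78 in the vector library (ratio 0.943, 0.831 to 1.07). ALG10, a glycosyltransferase gene 1125440 bases away on the other side, had a ratio of 0.922 (0.776 to 1.09). Both had fractional counts.

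**Figure D1:**
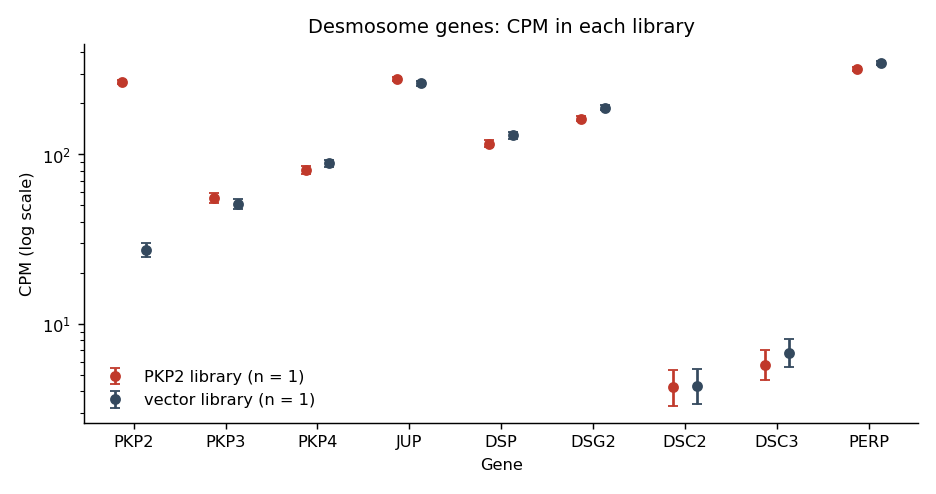
CPM of each desmosome gene on a log axis in the PKP2 library and the vector library, with bars for the 95% Poisson counting interval and 1 library per group. PKP2 stands at 268 against 27.3 CPM, and the points of the other 8 genes lie close together in each pair.

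The other 8 genes were all within 1.5-fold between the libraries. At that threshold on the log2(CPM + 1) scale 0 of these 8 genes were higher in the PKP2 library and 0 lower. Of the 12820 expressed genes 0.733% were higher and 0.788% lower. PKP2 was past the threshold, but it is the gene the culture overexpressed and is left out of this count. At 2-fold the counts of the 8 genes were again 0 and 0, where 0.0858% of expressed genes were higher and 0.101% lower. Of the 8 genes besides PKP2, 2 were higher and 6 lower in the PKP2 library, where 50.3% of all expressed genes were lower. The counting interval lay above 1 for JUP and below 1 for PKP4, DSP, DSG2 and PERP, and it held 1 for PKP3, DSC2 and DSC3. Over expressed genes 16.3% had an interval above 1 and 19.8% one below 1, so such small differences were common. The interval narrows as counts rise, and these shares are taken over genes of all levels. The median difference of the 8 genes was -0.12 on the log2 scale, and that of all expressed genes was 0.00. All 8 lay between the 5th and 95th percentiles of expressed genes, which were -0.36 and 0.33.

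**Figure D2:**
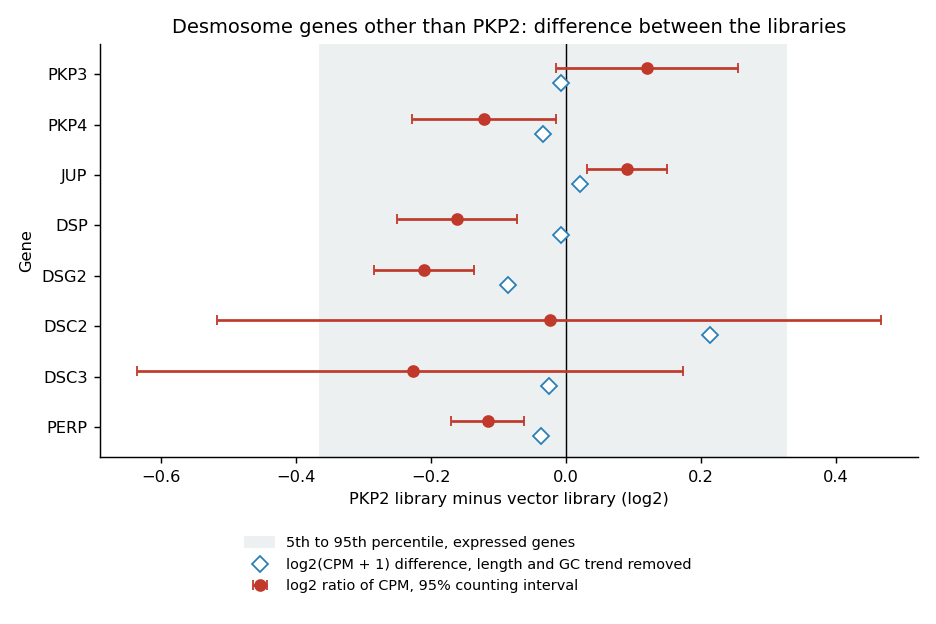
Difference between the PKP2 library and the vector library for the 8 desmosome genes other than PKP2, on a log2 scale. Filled points are the ratio of CPM with its 95% counting interval, open diamonds the log2(CPM + 1) difference after removal of the length and GC trend, and the grey band runs from -0.36 to 0.33, the 5th to 95th percentile of expressed genes. All points lie inside the band, and 7 of the 8 diamonds lie within 0.1 of 0, with DSC2 at 0.21.

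Across 10797 genes averaging at least 5 CPM, longer transcripts tended to be lower in the PKP2 library and GC-rich ones higher, with Spearman's rho of -0.52 for length and 0.41 for GC content. Genes are not independent replicates. Most of the desmosome genes lay along this course, and its part in their differences was not tested beyond removing it. The 2 genes that were higher, PKP3 and JUP, have the shortest of the longest transcripts among the 9, at 2809 and 3497 bases, and the highest GC contents, at 66.7% and 61.5%. PKP4, DSP, DSG2, DSC3 and PERP have longest transcripts of 4290 to 9796 bases and were all lower. DSC2, with the longest transcript at 12325 bases, had a point value off this order, at -0.02 where the trend was at -0.23. With 71 and 73 counts its interval, shifted by the trend, was 0.822 to 1.63, so a departure from the trend was not detectable. At their lengths and GC contents the trend alone had the values 0.12 for PKP3, 0.07 for JUP, -0.15 for DSP, -0.12 for DSG2 and -0.08 for PERP. With it removed, the median of the 8 genes was -0.02, and DSG2 was the 1 gene of them whose counting interval, shifted by the trend, did not hold 1, at a ratio of 0.942 (0.894 to 0.991). Of the 12820 expressed genes, 1572 had such a shifted interval above 1 and 1794 one below 1. Genes without an annotated length have no trend value and are in neither count.

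**Figure D3:**
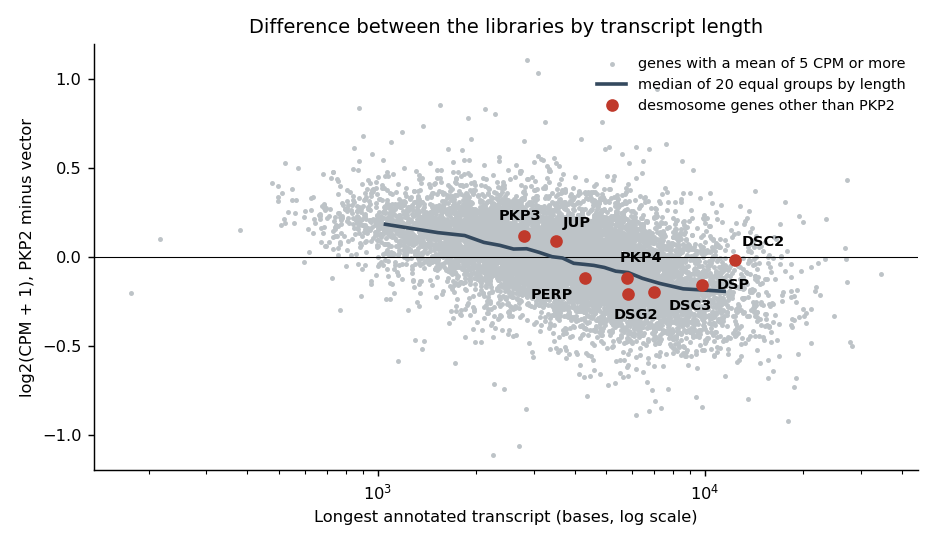
Difference on the log2(CPM + 1) scale, PKP2 library minus vector library, against the length of the longest annotated transcript on a log axis, for 10797 genes averaging at least 5 CPM, with 3 genes outside the vertical range. The line joins the medians of 20 equal groups by length and falls with length. PKP3 and JUP lie above 0 on the short side and PERP, PKP4, DSG2, DSC3 and DSP below 0, with DSC2 near 0 at the longest length.

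PKP2, PKP3 and PKP4 are relatives, and reads from a stretch shared between them could be counted for either gene, so their likeness is shown here. The stretch is the 60 bases in which the PKP2 and PKP4 coding sequences are most alike, with PKP3 at the place where it is most like PKP2. It is shown 5′ to 3′ on the coding strand, from GENCODE release 29 on GRCh38, and capitals mark bases that differ from PKP2. Each stretch crosses an exon boundary, so its coordinates also span the intron.
PKP2 (chr12:32822581-32824053, minus strand, exons 8 and 9): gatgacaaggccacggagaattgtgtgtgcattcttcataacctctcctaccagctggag
PKP3 (chr11:400443-400585, plus strand, exons 7 and 8): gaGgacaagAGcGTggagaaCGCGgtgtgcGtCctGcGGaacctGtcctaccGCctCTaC
PKP4 (chr2:158661442-158662947, plus strand, exons 13 and 14): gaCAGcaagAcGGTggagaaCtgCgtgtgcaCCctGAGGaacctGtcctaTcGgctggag
Of these 60 bases PKP4 differs from PKP2 at 18 and PKP3 at 20. The longest run of identical bases in the coding sequences was 15 between PKP2 and PKP3 and 12 between PKP2 and PKP4. Across all annotated transcripts of the 3 genes, untranslated parts included, no stretch of 31 bases was shared between them. Outside these relatives, PKP2 transcripts share such stretches with 3517 other genes, the longest of 141 bases with the processed pseudogene AC005840.3. How reads from those stretches were counted was not tested.

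PKP3, a plakophilin found in nearly all desmosomes, had 933 counts, or 55.5 CPM, in the PKP2 library and 868 counts, or 51.1 CPM, in the vector library. Its ratio was 1.09 with an interval of 0.990 to 1.19, and with the trend removed it was 0.997 (0.908 to 1.09). PKP4, also called p0071, is found at both desmosomes and adherens junctions. It had 1368 counts, or 81.4 CPM, in the PKP2 library and 1504 counts, or 88.5 CPM, in the vector library, a ratio of 0.920 (0.854 to 0.990), which was 0.976 (0.906 to 1.05) with the trend removed. PKP4 transcripts share up to 420 bases, in antisense orientation, with those of PKP4-AS1. That antisense gene has no count of its own in these data, and both PKP4 counts were whole numbers. With the strand setting unknown, whether its reads were counted for PKP4 was not tested. The sum of PKP3 and PKP4 had a ratio of 0.981 (0.926 to 1.04), so a difference in this sum was not detectable at this depth.

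The make-up of the plakophilin transcripts differed between the libraries. Whether the construct carries untranslated parts, and which isoform it holds, is not stated in the labels, so per-length levels of PKP2 in the PKP2 library depend on the length chosen. PKP2 was at 62.3 CPM per kilobase there with the longest transcript of 4302 bases and at 101.4 with the coding sequence. Per kilobase of longest transcript, PKP2 made up 64.8% of the 3 genes in the PKP2 library and 15.9% in the vector library. PKP3 made up 20.6% in the PKP2 library and 45.6% in the vector library, and PKP4 14.7% and 38.4%. As a share of raw counts, PKP2 held 66.2% (65.1 to 67.3) in the PKP2 library and 16.4% (15.02 to 17.8) in the vector library. PKP2 was the most abundant of the 3 genes per kilobase in the PKP2 library and the least abundant in the vector library. With the coding sequence as the length its shares were 68.9% and 18.4%. With the median length of the protein-coding transcripts they were 42.6% and 7.31%, and PKP3 at 44.2% was then slightly above PKP2 in the PKP2 library too. That median is 847 bases for PKP3, shorter than its longest coding sequence of 2391 bases, so it raises the level of PKP3. The skin-type plakophilin PKP1 had 0 counts in the PKP2 library and 1 count in the vector library, both under the limit of 3 counts that a count of 0 allows.

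Plakoglobin and desmoplakin are the other plaque proteins. JUP, a close relative of beta-catenin that binds the cadherin tails, had 4697 counts, or 279 CPM, in the PKP2 library and 4461 counts, or 262 CPM, in the vector library. The ratio was 1.06 (1.02 to 1.11), and 1.02 (0.974 to 1.06) with the trend removed. DSP, the plakin that anchors keratin, had 1946 counts, or 115.8 CPM, in the PKP2 library and 2200 counts, or 129.4 CPM, in the vector library. Its ratio was 0.894 (0.841 to 0.951), and 0.995 (0.935 to 1.06) with the trend removed. The 2 genes thus lay on opposite sides of 1 before the trend was removed and both close to 1 after it. JUP held 70.7% (69.6 to 71.8) of their joint counts in the PKP2 library and 67.0% (65.8 to 68.1) in the vector library. Per kilobase of longest transcript its shares were 87.1% and 85.0%. The length and GC trend, at 0.07 for JUP and -0.15 for DSP, was not removed from these shares.

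The desmosomal cadherin transcripts were almost all DSG2. DSG2, the desmoglein of simple epithelia, had 2739.06 estimated counts, or 163 CPM, in the PKP2 library and 3204 counts, or 188.5 CPM, in the vector library. The ratio was 0.864 (0.821 to 0.910), the lowest of the 6 genes above 50 CPM in both libraries. DSC2, the widespread desmocollin, had 71 counts, or 4.22 CPM, in the PKP2 library and 73 counts, or 4.29 CPM, in the vector library. Its ratio was 0.983 (0.699 to 1.38). DSC3, a desmocollin best known from basal layers of stratified epithelia, had 96.77 estimated counts, or 5.76 CPM, in the PKP2 library and 114.53, or 6.74 CPM, in the vector library. Its ratio was 0.854 (0.644 to 1.13). At such counts a difference in either desmocollin smaller than the width of its interval could not be seen.

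Per kilobase of longest transcript DSG2 made up 96.0% of the 3 cadherins in the PKP2 library and 96.1% in the vector library. It made up 92.9% and 93.2% with the coding sequence as the length, so its lead did not rest on the long annotated transcript of DSC2. As a share of raw counts it was 94.2% (93.3 to 95.04) in the PKP2 library and 94.5% (93.6 to 95.2) in the vector library. The split between the desmocollins did not differ detectably, with DSC2 at 42.3% (34.7 to 50.1) of their joint counts in the PKP2 library and 38.9% (31.8 to 46.2) in the vector library.

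How reads were divided between the desmocollins was not tested, and DSC2 and DSC3 share an identical run of 80 bases in their coding sequences, the longest between any 2 of the 9 genes. No other pair shared a coding run of more than 15 bases. The run lies in exon 15 of both genes, at chr18:31068910-31068989 in DSC2 and at chr18:30996807-30996886 in DSC3, both on the minus strand of GRCh38. It is shown 5′ to 3′ on the coding strand, with no base that differs.
DSC2 and DSC3: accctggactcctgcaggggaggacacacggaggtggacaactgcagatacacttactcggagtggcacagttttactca
DSC3 counts were fractional in both libraries and DSC2 counts were whole. The sum of DSC2 and DSC3 was 9.98 CPM in the PKP2 library and 11.0 CPM in the vector library. Its ratio was 0.905 (0.729 to 1.12). A division of reads between the desmocollins alone does not touch this sum, yet the joint counts of 167.77 and 187.53 were fractional too. DSC3 transcripts also share up to 89 bases with those of AC127164.1, and a division with other genes could touch the sum. DSG2 also had a fractional count, in the PKP2 library alone. Its transcripts share up to 173 bases, in antisense orientation, with those of DSG2-AS1, which has no count of its own in these data. The strand setting of the counting was not stated in the labels or headers.

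DSG2, DSC2 and DSC3 belong to 1 cluster of desmosomal cadherin genes on chromosome 18, with DSC3 at 30990008 to 31042815 at its low end and DSG2 at 31498043 to 31549008 at its high end. The transcription starts of these genes lie 455 kb apart. Between them the skin desmogleins were close to silent. DSG4 had 3 counts in the PKP2 library and 0 in the vector library, and DSG3 had 1.51 and 1.03 estimated counts, all at or under 3 counts. DSC1 and DSG1 were not analysed here. B4GALT6, the galactosyltransferase gene beyond DSG2, had a ratio of 0.864 (0.748 to 0.997), a value like that of DSG2 itself. The length and GC trend was also alike for the 2 genes, at -0.13 for B4GALT6 and -0.12 for DSG2. With it removed they lay at -0.08 and -0.09 on the log2 scale. CDH2, which encodes N-cadherin and is the nearest gene analysed on the side of DSC3, lies 2812561 bases away. It had a ratio of 1.16 (1.07 to 1.27).

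**Figure D4:**
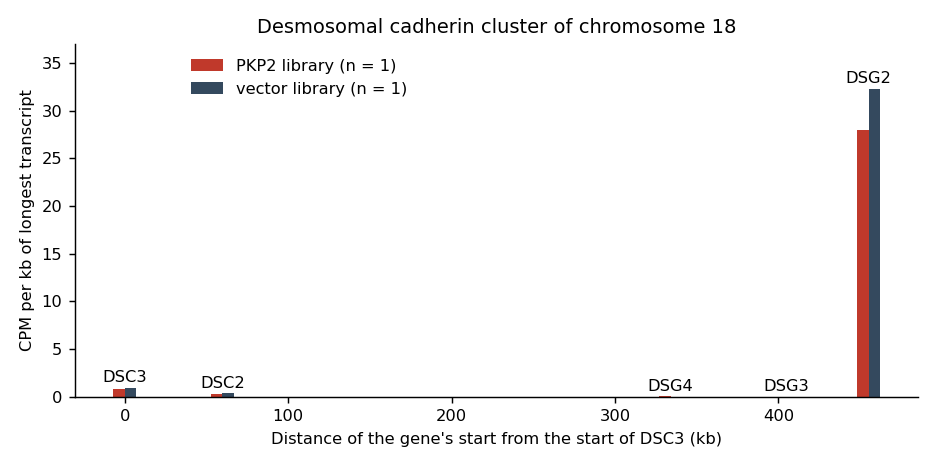
Level in CPM per kilobase of longest transcript of the 5 genes analysed in the chromosome 18 desmosomal cadherin cluster, against the distance of each gene's start from that of DSC3 in kilobases, with 1 bar for the PKP2 library and 1 for the vector library. DSG2 stands at 27.9 and 32.3, the desmocollins are under 1, and DSG3 and DSG4 are near 0.

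PERP is a tetraspan membrane protein that desmosomes of stratified epithelia need for their stability. It had 5370 counts, or 319.5 CPM, in the PKP2 library and 5884 counts, or 346 CPM, in the vector library. The ratio was 0.923 (0.889 to 0.958), and 0.974 (0.939 to 1.01) with the trend removed.

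Outside the cadherin cluster the members lie apart in the genome, and their nearest analysed coding genes gave a local comparison on GRCh38. PKP3 (chromosome 11, 392614 to 404908, plus strand) lies 807 bases from SIGIRR, a negative regulator of interleukin-1 receptor signalling. SIGIRR had a ratio of 1.17 (1.01 to 1.35), and B4GALNT4 on the other side had one of 1.17 (0.956 to 1.43), both slightly above the 1.09 of PKP3. PKP4 (chromosome 2, 158456964 to 158682879, plus strand) lies between CCDC148, with 9 counts in the PKP2 library and 11 counts in the vector library, and TANC1, at a ratio of 0.855 (0.760 to 0.961). JUP (chromosome 17, 41754604 to 41786931, minus strand) lies between HAP1, at 0.928 (0.656 to 1.31), and P3H4, at 1.12 (1.02 to 1.23). DSP (chromosome 6, 7541575 to 7586717, plus strand) lies between RIOK1, at 0.897 (0.774 to 1.04), and SNRNP48, at 0.922 (0.803 to 1.06). The intervals of these genes overlapped those of the members beside them, and HAP1 lay on the other side of 1 from JUP. PERP is on chromosome 6, 138088505 to 138107511, on the minus strand. Its neighbour TNFAIP3, an inhibitor of NF-kappaB signalling, had a ratio of 1.24 (1.12 to 1.37), and ARFGEF3 on the other side had one of 0.829 (0.739 to 0.930). The length and GC trend was not removed from these neighbour ratios. On the log2 scale it was at 0.18 for SIGIRR, -0.15 for TANC1, -0.20 for ARFGEF3 and -0.04 for TNFAIP3.

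Levels can be compared between genes only per length. Per kilobase of longest transcript the order in the PKP2 library was JUP at 79.9 CPM, PERP at 74.5, PKP2 at 62.3, DSG2 at 27.9, PKP3 at 19.8, PKP4 at 14.1, DSP at 11.8, DSC3 at 0.825 and DSC2 at 0.343. In the vector library it was PERP at 80.7 CPM, JUP at 75.1, DSG2 at 32.3, PKP3 at 18.2, PKP4 at 15.3, DSP at 13.2, PKP2 at 6.35, DSC3 at 0.966 and DSC2 at 0.348. PKP2 thus stood at place 3 in the PKP2 library, or at place 4 with the median length of the protein-coding transcripts, and at place 7 in the vector library under each length. Place 4 rests on PKP3, whose median length of 847 bases is shorter than its longest coding sequence of 2391 bases. The place of PKP2 in the PKP2 library also rests on the unknown length of the construct transcript. In these orders JUP and PERP changed places. Neighbours in these orders had counting intervals that did not overlap, but the spread between replicates is unknown. The choice of length moved some places. With the coding sequence as the length PERP led in both libraries and PKP4 stood above PKP3 in the vector library. The highest level therefore belonged to JUP or PERP under each length, and the lowest to DSC2 or DSC3.

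**Figure D5:**
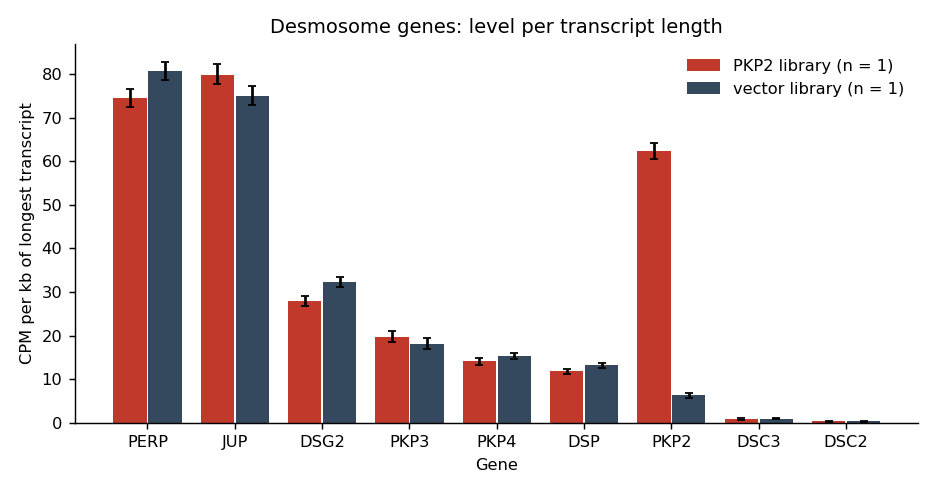
Level of each desmosome gene in CPM per kilobase of its longest annotated transcript, with the PKP2 library left of the vector library in each pair and bars for the 95% Poisson counting interval, ordered by the vector library. PKP2 stands at 62.3 in the PKP2 library, above DSG2, and at 6.35 in the vector library, below DSP.

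Set against its partners, PKP2 stood higher in the PKP2 library than in the vector library under each length, while the size of these ratios moved with the length used and, in the PKP2 library, with the unknown length of the construct transcript. Per kilobase of longest transcript it was at 5.27 times the level of DSP in the PKP2 library and at 0.480 times in the vector library. With coding lengths this ratio was 7.54 in the PKP2 library and 0.687 in the vector library, and with median transcript lengths 4.81 and 0.438. The same ratio to JUP was 0.780 in the PKP2 library and 0.0845 in the vector library, and that to DSG2 was 2.23 and 0.196. With median transcript lengths the ratio to JUP was 0.224 in the PKP2 library and 0.0243 in the vector library, and that to DSG2 was 1.34 and 0.118. The median length for JUP, 989 bases, is shorter than its longest coding sequence of 2235 bases, which lowers the ratio to JUP. The 9 genes summed to 1293 CPM in the PKP2 library and 1104 CPM in the vector library, a ratio of 1.17 (1.15 to 1.19). PKP2 alone was 241 CPM higher, while the other 8 summed to 1025 CPM in the PKP2 library and 1077 CPM in the vector library, a ratio of 0.951 (0.931 to 0.971). The length and GC trend was not removed from this sum. With it removed gene by gene, the median difference of the 8 was -0.02.

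Genes that work next to the desmosome were described from lists. The plakins PLEC, PPL, EVPL, DST and MACF1, which link filaments to junctions or to the other parts of the cytoskeleton, were 5 of 5 lower, 3 with an interval below 1, at a median difference of -0.18. Of all expressed genes 50.3% were lower and 19.8% had an interval below 1. Their longest transcripts have a median length of 15249 bases, and with the trend removed the median was -0.04 and 2 of the 5 kept an interval below 1. After that removal 1794 of the 12820 expressed genes had an interval below 1. MACF1 was at 239 CPM in the PKP2 library and 301 CPM in the vector library (ratio 0.794, 0.762 to 0.828). For DST the ratio was 0.861 (0.809 to 0.915), yet its difference was 0.04 with the trend removed. For PPL the ratio was 0.867 (0.673 to 1.11). Of the filament genes KRT7, KRT8, KRT18, KRT19 and VIM, 4 of 5 were higher with an interval above 1, against 16.3% of expressed genes. That share is not matched for level, as these genes are abundant and the interval narrows as counts rise. KRT8 was among the 4 at a ratio of only 1.01 (1.005 to 1.02). KRT19 was at 368 CPM in the PKP2 library and 326 CPM in the vector library (ratio 1.13, 1.09 to 1.17). KRT7 had a ratio of 1.10 (1.08 to 1.11), and the mesenchymal filament gene VIM one of 1.10 (1.08 to 1.12). With the trend removed the median of these 5 was -0.03 instead of 0.14. VIM, at 0.11, was then the 1 gene with an interval above 1, and KRT7, KRT8 and KRT18 had one below 1, at -0.03, -0.06 and -0.12, so the direction of KRT7 and KRT8 turned. Among the 12820 expressed genes 1572 were then above 1 and 1794 below 1, again not matched for level.

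PKP4 belongs to the p120-catenin branch of armadillo proteins, which bind classical cadherins. Of its relatives, CTNND1, the p120-catenin gene, was at 318 CPM in the PKP2 library and 364 CPM in the vector library (ratio 0.874, 0.842 to 0.907). ARVCF was at 5.53 CPM in the PKP2 library and 3.29 CPM in the vector library, from 93 and 56 counts, a ratio of 1.68 (1.19 to 2.38). It was the 1 gene of this branch past 1.5-fold, where 0.733% of expressed genes were that much higher. With the trend removed ARVCF lay at 0.54 on the log2 scale, just under that threshold of 0.58. CTNND1 then lay at -0.08, with an interval, shifted by the trend, of 0.910 to 0.979. CTNND2 had 2 counts in the PKP2 library and 1 count in the vector library.

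Of 8 genes whose proteins are known to act on desmosomal proteins or their signalling, 1 had an interval above 1 and 5 below 1, against 16.3% and 19.8% of expressed genes. With the trend removed these counts were 0 and 3, where 1572 and 1794 of the 12820 expressed genes had such intervals. EGFR, the epidermal growth factor receptor, was at 143.6 CPM in the PKP2 library and 258.5 CPM in the vector library (ratio 0.555, 0.528 to 0.584). PRKCA, the protein kinase C alpha gene, whose product is known to act on desmosome adhesion and on PKP2 and DSP assembly, was at 159 CPM in the PKP2 library and 231 CPM in the vector library (ratio 0.689, 0.656 to 0.724). ADAM10, a sheddase of DSG2, had a ratio of 0.792 (0.759 to 0.827). With the trend removed EGFR lay at -0.69 and PRKCA at -0.39 on the log2 scale, while ADAM10 lay at -0.10. The list's median was -0.25, and -0.08 with the trend removed. PRMT1, an arginine methyltransferase that acts on DSP, was the 1 gene with an interval above 1, at 1.14 (1.10 to 1.19), and with the trend removed its interval of 0.992 to 1.07 held 1. Its name was looked up with the values in view.

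Of the transcription factors that act on epithelial junction genes and are reported here, 2 had an interval above 1 and 2 below 1, where 16.3% and 19.8% of expressed genes did. The other expressed ones, SNAI1, ZEB2, GRHL1 and TP63, had intervals that held 1. These were named after their values were seen, to give the counts a base. The repressor ZEB1 was at 28.4 CPM in the PKP2 library and 37.9 CPM in the vector library (ratio 0.748, 0.663 to 0.843), and KLF5 was at 85.1 and 101.9 CPM (ratio 0.835, 0.778 to 0.896). TWIST1 was at 6.19 CPM in the PKP2 library and 4.47 CPM in the vector library (ratio 1.38, 1.02 to 1.89), and with the trend removed its interval of 0.919 to 1.70 held 1. The second factor with an interval above 1 was SNAI2, a repressor of several desmosome genes, with 36 counts in the PKP2 library and 20 counts in the vector library, a ratio of 1.82 (1.03 to 3.32). It was picked after its value was seen. With the trend removed SNAI2 kept an interval above 1, and ZEB1 and KLF5 kept theirs below 1. GRHL2 was not analysed here.

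Markers of stratified epithelia, where desmosomes are densest, were low and mixed. KRT5 had 19 counts in the PKP2 library and 16 counts in the vector library. KRT10 was at 20.7 CPM in the PKP2 library and 19.0 CPM in the vector library, a ratio of 1.09 (0.934 to 1.27). FLG, which encodes filaggrin, had 12 counts in the PKP2 library and 34 counts in the vector library, a ratio of 0.357 (0.168 to 0.707), past 1.5-fold on the log2(CPM + 1) scale at -0.81.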

How the data were processed

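The authors deposited estimated counts per gene by Entrez ID, called counts per the file headers, with 2491 fractional values in the PKP2 file and 2403 in the vector file. Per the submitters' processing notes, the build was GRCh38.p12 and the tools were RSEM 1.2.12, HISAT2 2.0.4 and Bowtie2, with roles and order left unstated. Annotation, filters and strand setting were not given in the sources used here, so genes with overlapping, antisense or near-identical copies are uncertain.

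CPM was the count over the library total times 1000000. The difference was log2(CPM + 1), PKP2 minus vector, and understates low genes. Genes reaching 1 CPM in either library were called expressed. Ratios of CPM have exact Clopper-Pearson intervals from counts rounded to whole numbers, and CPM values and shares have exact Poisson and Clopper-Pearson ones. Symbols came from RefSeq (GRCh38.p14, names only, 16183 IDs matched), and positions, lengths, GC content and sequences from GENCODE release 29 on GRCh38. The length and GC trend was an additive lowess fit with a span of 0.3 on expressed genes (statsmodels 0.14.6, SciPy 1.17.1). The scripted calculation was first tested on simulated data, in which 200 of 16399 genes were changed.

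The members, lists and alternatives were chosen with earlier results of these data known. Beside the 9 genes the text names up to 3 genes of each list with the largest difference among those averaging at least 5 CPM (1 CPM where there were fewer), the nearest coding genes on the chromosome and the 3 genes nearest PKP2 in the ranking. Marker genes were named to check the labels. Other genes are said to have been picked after their values were seen. One gene, and a list of genes tied to it, are not reported here.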

Additional observations from a re-analysis of the deposited data

How the results depend on the processing

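PKP2 stayed far above 1.5-fold under all alternatives, at 3.08 with a pseudocount of 5 and between 3.25 and 3.29 otherwise on the log2 scale. No desmosome gene besides PKP2 passed 1.5-fold under pseudocounts of 0.1 or 5, scaling to a median of 0, scaling by a trimmed mean, removal of the length and GC trend, no filter or a mean of 5 CPM or more, and at 2-fold PKP2 was again the 1 gene. Removing the trend left 1 gene with an interval above 1 (PKP2) instead of 2 and 1 below 1 (DSG2) instead of 4, the 1 setting that moved these counts. Over the 12820 expressed genes it left 1572 above 1 instead of 2096 and 1794 below 1 instead of 2541. The median of the other 8 genes lay between -0.12 and -0.02 under these settings, and at -0.07 over the 6 with whole counts. Of the 36 pairs of genes, 35 kept their order per kilobase in both libraries with the coding length, and 33 in the PKP2 library and 34 in the vector library with the median transcript length. No paired analysis was possible because each group holds 1 library, and no library could be left out. The 71 to 114.53 counts of the desmocollins limit what could be seen there.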
